A study of Mus musculus with 6 samples.

Results

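The genes described here were the 37 that encode the enzymes, transporters and regulators of glycolysis, lactate production, pyruvate entry into mitochondria and the pentose phosphate pathway. They were taken by gene symbol from the 2 tables of bulk RNA-seq counts, and all 37 of 37 were listed in both tables, which together hold 16279 genes. The cells were male F1 hybrids of C57BL/6 and CAST/EiJ mice. The first group was mouse embryonic stem cells (mESCs), grown in 2i medium with LIF as 3 clones that came from separate blastocysts. The second was the cardiac precursor cell cultures (CPCCs) derived from these clones through embryoid bodies and passaged in medium with EGF and Fgf2. CPCCs are mixed cultures, so a lower value cannot be told apart from fewer cells that express the gene. The culture medium also differed between the groups, and its effect cannot be told apart from that of cell type. There were 3 libraries per group, and the columns did not say which clone each came from, so libraries are named as in their columns, S01 to S03 for mESCs and S04 to S06 for CPCCs. P-values therefore measure the spread between these 3 and 3 libraries.

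Glycolysis splits glucose to pyruvate in the cytosol and yields ATP without oxygen, and lactate dehydrogenase then turns pyruvate to lactate. The pentose phosphate pathway branches off at glucose-6-phosphate. Its oxidative steps make NADPH and its non-oxidative steps make ribose-5-phosphate for nucleotides. Rapidly dividing pluripotent cells are known for high rates of both, and heart muscle in the adult is known for oxidising fatty acids and lactate.

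Values are given in CPM, which is counts per 1000000 of a library's effective size, and fold changes compare CPCCs with mESCs. The effective size is the library's counts over the genes in both tables, multiplied by its TMM normalization factor. The 6 libraries held 6442639 to 11436062 counts, and 3 counts in a library equalled 0.298 to 0.463 CPM. Of 12471 genes tested, 61.4% differed at an adjusted p under 0.05, with 31.7% higher in CPCCs and 29.7% lower. The median log2 fold change of all genes tested was 0.03. The labels were checked on marker genes. All 8 of 8 pluripotency markers were lower in CPCCs, and *Fst*, *Tnnt2*, *Col1a1* and *Acta2* of the 6 cardiac and mesenchymal markers tested were higher. *Mef2c* and *Sox9* were listed only for CPCCs. *Gata4*, which marks cardiac precursors, stayed between 1.99 and 5.62 CPM in CPCCs and its change did not pass the test (adjusted p = 0.137). *Pdgfra* did not pass either (adjusted p = 0.0609). Of other lineages, 4 of 4 neural and 2 of 2 endoderm markers tested were higher, and the endothelial marker *Pecam1* was lower. The endoderm markers were uneven over S04 to S06, with *Foxa2* at 5.96, 47.1 and 17.0 CPM and *Gata6* at 40.1, 7.52 and 7.33 CPM.

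Of the 37 genes, 22 were lower in CPCCs and 7 were higher, and 8 did not pass the test. The lower genes made up 59.5% of the 37, against 29.7% of all genes tested, and the higher genes 18.9%, against 31.7%. At least a 2-fold change was seen in 16 of the lower genes and in 6 of the higher genes, where 19.5% of all genes tested were called lower and 25.5% higher by that much. The median log2 fold change of the 37 genes was -0.84. All 22 lower genes had every CPCC library below every mESC library, and all 7 higher genes had every CPCC library above. Without regard to the test, 34.5% of all genes tested had every CPCC library below and 35.3% had every CPCC library above. Together the counts of the 37 genes equalled 1.61%, 1.59% and 1.59% of the effective size of S01, S02 and S03 but 0.546%, 0.654% and 0.715% of that of S04, S05 and S06. The plot of levels by library shows where the groups separate.

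**Figure D1:**
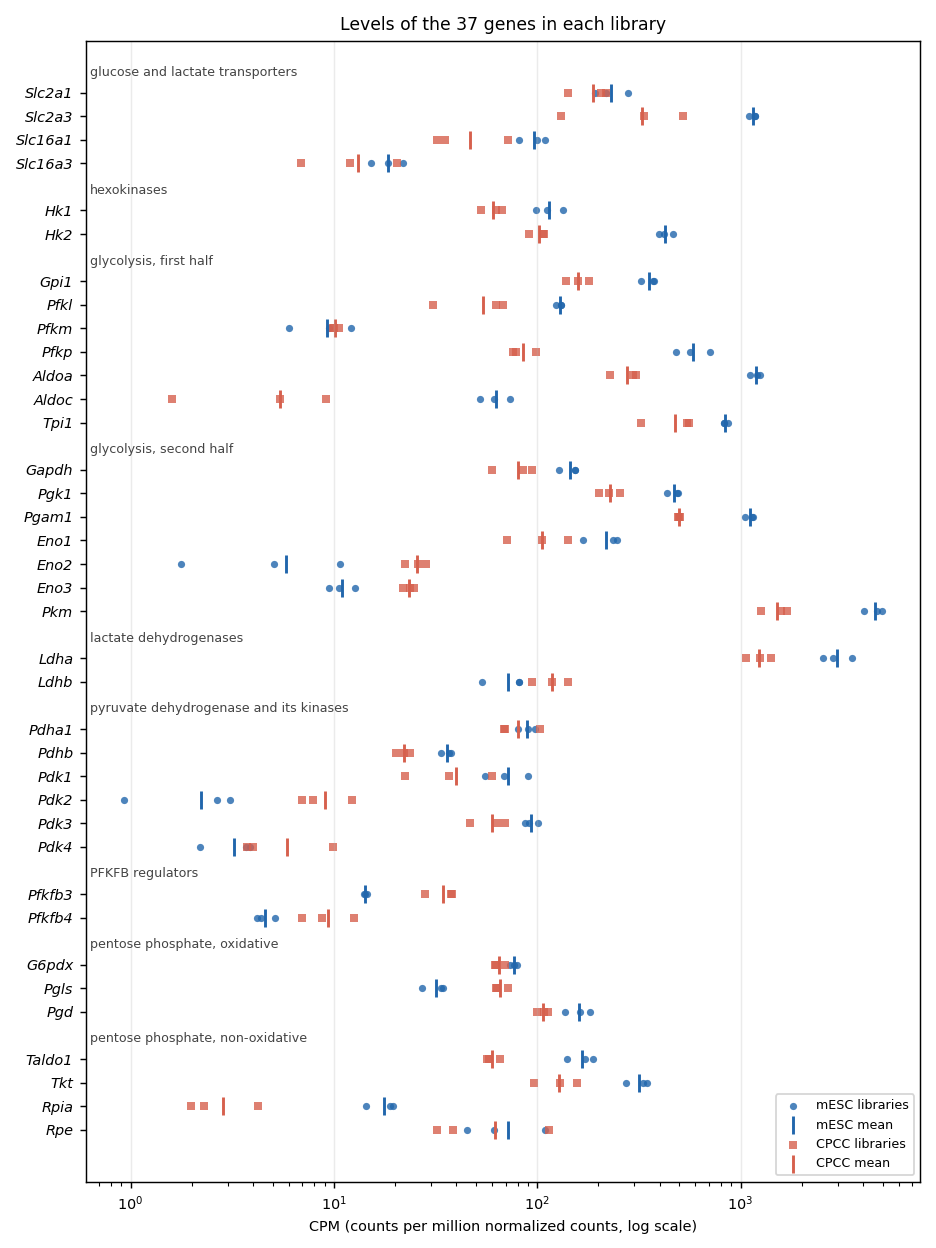
CPM of each of the 37 genes on a log axis, with the genes on the vertical axis grouped by role. Circles are the 3 mESC libraries, squares are the 3 CPCC libraries, and vertical ticks are group means. *Pkm*, *Ldha*, *Aldoa*, *Pgam1* and *Slc2a3* lie at 1000 CPM or more in mESCs and below that in CPCCs except *Pkm* and *Ldha*, while *Eno2*, *Eno3*, *Pdk2*, *Pfkfb3* and *Pgls* sit higher in CPCCs.

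Cells take up glucose through facilitative transporters, and the main neuronal and stem cell form is encoded by *Slc2a3* (GLUT3), a gene at chromosome 6, 122727809 to 122742746, on build GRCm38 as all positions here. *Slc2a3* had 1182, 1179 and 1105 CPM in the mESC libraries and 131, 334 and 522 CPM in S04, S05 and S06. The groups were far apart, although the CPCC libraries themselves spread over a wide range. The log2 fold change was -1.81 (SE 0.40, adjusted p = 0.00388, which like every adjusted p below is edgeR's). *Slc2a1* (GLUT1), the widely expressed transporter, had 217, 192 and 280.4 CPM in mESCs, whereas CPCCs had 217, 141 and 206 CPM. These ranges overlapped, and the log2 fold change of -0.29 did not pass the test (adjusted p = 0.278). Lactate leaves or enters cells through monocarboxylate transporters. *Slc16a1* (MCT1) averaged 96.7 ± 13.8 CPM in mESCs compared with 46.5 ± 22.2 CPM in CPCCs (SD, n = 3 each), with an adjusted p of 0.0147. That call was lost without S03 (adjusted p = 0.0556) and without S05 (adjusted p = 0.0592). *Slc16a3* (MCT4), the form linked to lactate export, was 18.5 ± 3.25 CPM and 13.1 ± 6.90 CPM (SD, n = 3 each) and was not called (adjusted p = 0.289). It passed only without S06, with an adjusted p of 0.0406.

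Hexokinase phosphorylates glucose and so commits it to the cell. *Hk2* (chromosome 6, 82725027 to 82774455), the inducible form, stood at 463, 420.1 and 399 CPM in the mESC libraries against 107, 91.4 and 108 CPM in the CPCC libraries. Every CPCC library was well under every mESC library, and the log2 fold change was -2.06 (SE 0.16, adjusted p = 1.08e-05). *Hk1*, the form of most adult tissues, ran at 111, 134 and 98.5 CPM over S01 to S03 and at 62.5, 67.3 and 52.7 CPM over S04 to S06. It also fell, with a log2 fold change of -0.91 (SE 0.19, adjusted p = 0.00248).

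The steps from glucose-6-phosphate to triose phosphate are run by glucose-6-phosphate isomerase (*Gpi1*), phosphofructokinase, aldolase and triosephosphate isomerase (*Tpi1*). Of the 7 genes here, 6 were lower in CPCCs and *Pfkm* was not called. *Pfkp* (chromosome 13, 6579874 to 6648772), the platelet-type phosphofructokinase of the rate-limiting step, had 565, 483 and 708 CPM in the mESC libraries compared with 76, 99.2 and 78.8 CPM in CPCCs. Its fall was the largest among the phosphofructokinases, with a log2 fold change of -2.79 (SE 0.20, adjusted p = 8.32e-06). The 3′ end of *Pfkp* shares 748 bp of annotated transcript with the neighbouring gene *Pitrm1* on the other strand, and whether counting used the strand is not given in the sources used here. *Pitrm1* ranged from 110 to 142 CPM over the 6 libraries and was not called (adjusted p = 0.165).

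*Pfkl*, the liver-type phosphofructokinase, had 131, 124 and 131 CPM in mESCs, whereas CPCCs had 30.8, 63.1 and 67.7 CPM (log2 fold change -1.26, SE 0.28, adjusted p = 0.00366). S04 lay apart from the other CPCC libraries for this gene. *Pfkm*, the muscle-type form, stood at 9.42, 6.03 and 12.1 CPM in the mESC libraries against 10.5, 10.1 and 9.86 CPM in the CPCC libraries, and its values overlapped (log2 fold change 0.14, adjusted p = 0.729).

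Aldolase cleaves fructose-1,6-bisphosphate. *Aldoa* (chromosome 7, 126795234 to 126800448), the muscle and ubiquitous form, ran at 1207, 1253 and 1117 CPM over S01 to S03 and at 227, 296 and 305 CPM over S04 to S06. The log2 fold change was -2.11 (SE 0.17, adjusted p = 1.26e-05), and with its listed retrogenes *Aldoart1* and *Aldoart2* added it was -2.02 (SE 0.16). *Aldoc* (chromosome 11, 78323073 to 78327779), the brain form, had 61.2, 52.5 and 73.7 CPM in the mESC libraries compared with 1.59, 5.46 and 9.17 CPM in CPCCs. It showed the largest fall of the 37 genes, 11.6-fold on the fitted scale (log2 fold change -3.54, SE 0.50, adjusted p = 0.000304), and -4.17 without S06. *Gpi1* averaged 357 ± 28.7 CPM in mESCs compared with 159.6 ± 20.8 CPM in CPCCs (SD, n = 3 each, adjusted p = 0.0003). *Tpi1* was 843 ± 23.6 CPM and 476 ± 132 CPM (SD, n = 3 each, adjusted p = 0.00805).

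In the steps from triose phosphate to pyruvate, which return ATP and NADH, 5 of 7 genes were lower and the 2 minor enolase genes were higher. *Pkm* (chromosome 9, 59656368 to 59679376) is the pyruvate kinase of muscle and most other tissues. It had 4702, 4989 and 4062 CPM in mESCs, whereas CPCCs had 1254, 1587 and 1684 CPM (log2 fold change -1.60, SE 0.16, adjusted p = 4.8e-05). Counts per gene do not tell the M1 and M2 splice forms of *Pkm* apart. *Pgam1*, phosphoglycerate mutase, stood at 1049.8, 1142 and 1152 CPM in the mESC libraries against 490.1, 498 and 506 CPM in the CPCC libraries. The CPCC libraries were close to each other here, and the log2 fold change was -1.16 (SE 0.13, adjusted p = 9.72e-05). *Pgk1*, the X-linked phosphoglycerate kinase that makes the pathway's first ATP, averaged 471 ± 30.5 CPM in mESCs compared with 227 ± 27.3 CPM in CPCCs (SD, n = 3 each, adjusted p = 0.000399).

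*Gapdh* (chromosome 6, 125161852 to 125166468), the dehydrogenase often used as a reference gene, ran at 153, 153 and 128 CPM over S01 to S03 and at 59.9, 85.5 and 94.8 CPM over S04 to S06. As listed it was lower in CPCCs, with a log2 fold change of -0.85 (SE 0.20, adjusted p = 0.00568). Its counts share sequence with copies elsewhere in the genome, and this changed the call. A search of GENCODE transcripts at 95% identity or more over at least 200 bp found 78 annotated copies of *Gapdh*, of which *Gm12070* and *Gm5069* were listed in the tables. *Gm12070* had 151, 158 and 115 CPM in the mESC libraries compared with 104, 153 and 161 CPM in CPCCs, and these ranges overlapped. With both copies added to *Gapdh* the log2 fold change was -0.37 (SE 0.20) and was no longer called (adjusted p = 0.14).

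Enolase makes phosphoenolpyruvate. *Eno1* (chromosome 4, 150237197 to 150248874), the widely expressed form, had 246, 237 and 168 CPM in mESCs, whereas CPCCs had 71.3, 106 and 141 CPM (log2 fold change -1.03, SE 0.26, adjusted p = 0.00789). Its retrocopy *Eno1b*, 99.5% identical over 1736 bp, was listed with far more counts, at 2722, 2470.3 and 2338 CPM in mESCs against 1016, 1326 and 1486 CPM in CPCCs. Only 7.91% of the counts of the pair stood under *Eno1* in mESCs and 7.54% in CPCCs. The sum of the pair was 2968, 2707 and 2506 CPM in mESCs, compared with 1087, 1432 and 1627 CPM in CPCCs. Its log2 fold change of -0.98 (SE 0.17, adjusted p = 0.00116) was close to that of *Eno1* alone, so the direction did not depend on how the reads were divided. Annotated copies of *Pgk1* and *Ldha* (4 each), *Pkm* (2), and *Gpi1*, *Tpi1*, *Pgam1*, *Ldhb* and *Pdhb* (1 each) had no values of their own in both tables. The plot of genes with their listed copies sets these values side by side.

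**Figure D2:**
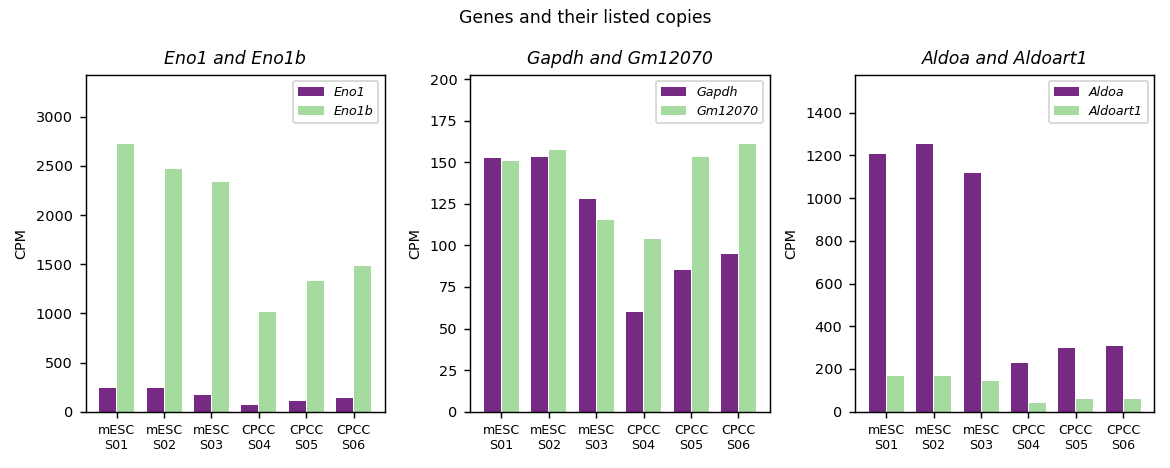
CPM in each library (vertical axis) of *Eno1* and *Eno1b*, *Gapdh* and *Gm12070*, and *Aldoa* and *Aldoart1*, with the 3 mESC libraries on the left of each panel and the 3 CPCC libraries on the right. *Eno1b* stands above *Eno1* in all 6 libraries, and *Gm12070* stands above *Gapdh* in all 3 CPCC libraries.

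The other enolases went the opposite way. *Eno2* (chromosome 6, 124760053 to 124769674), the neuronal form, stood at 5.10, 1.77 and 10.7 CPM in the mESC libraries against 28.4, 25.8 and 22.5 CPM in the CPCC libraries. The log2 fold change was 2.13 (SE 0.51, adjusted p = 0.00572), and it was 2.90 without S03. Markers of neural cells were also higher in CPCCs, with 4 of 4 tested called and none at 0 in a CPCC library. Their summed level was 39.1 to 47.8 CPM in mESCs against 517 to 566 CPM in CPCCs, mostly from *Nes* and *Tubb3*. Over S04 to S06 *Sox1* went from 3.78 to 23.4 and 50.9 CPM, while *Neurod1* went from 10.7 to 6.43 and 3.90 CPM. The part of neural cells in the rise of *Eno2* was not tested. *Eno3* (chromosome 11, 70657176 to 70662514), the muscle form, ran at 12.7, 10.6 and 9.51 CPM over S01 to S03 and at 24.8, 23.6 and 21.9 CPM over S04 to S06 (log2 fold change 1.10, SE 0.24, adjusted p = 0.00328).

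Lactate dehydrogenase A favours the making of lactate and the B form its use. *Ldha* (chromosome 7, 46845804 to 46855628) had 2851, 2551 and 3520.5 CPM in the mESC libraries compared with 1061, 1242 and 1409.6 CPM in CPCCs. It fell by 1.27 on the log2 scale (SE 0.17, adjusted p = 0.000268). *Ldhb*, the heart form, had 81.1, 80.9 and 53.4 CPM in mESCs, whereas CPCCs had 119, 142 and 94.5 CPM. Its rise of 0.72 on the log2 scale (SE 0.23, adjusted p = 0.0208) was the smallest of the 7 genes called higher and rested on single libraries, with an adjusted p of 0.0686 without S03 and 0.0851 without S05.

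The fold changes of all 37 genes are set out by role in the plot of changes with their errors.

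**Figure D3:**
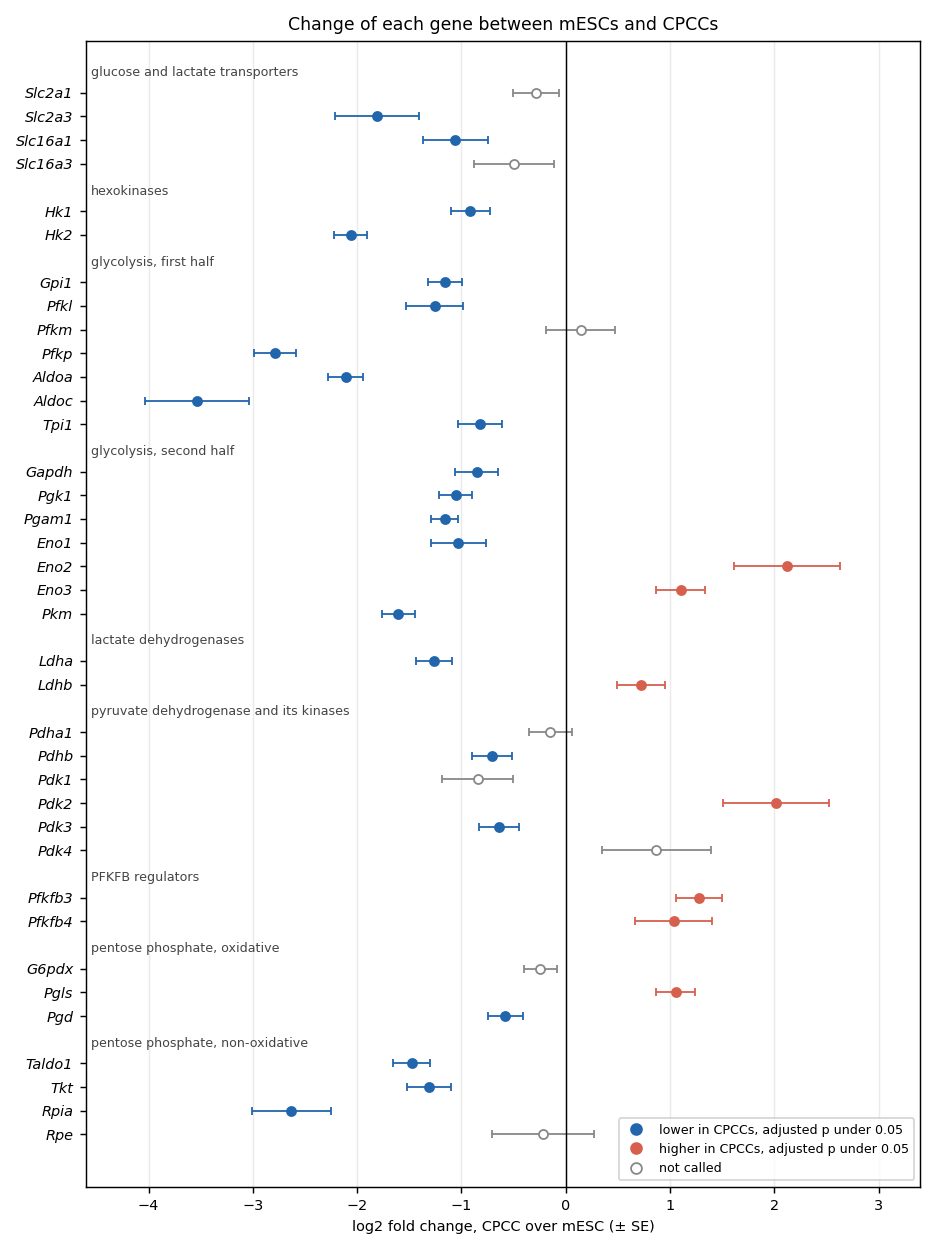
log2 fold change of each gene, CPCC over mESC, on the horizontal axis with bars of 1 standard error and the genes grouped by role. Filled blue points are the 22 genes lower in CPCCs, filled red points the 7 higher and open points the 8 not called. *Aldoc*, *Pfkp* and *Rpia* lie farthest to the left and *Eno2* and *Pdk2* farthest to the right.

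Pyruvate dehydrogenase turns pyruvate to acetyl-CoA in mitochondria, and its kinases switch it off. *Pdha1*, the X-linked catalytic subunit, averaged 89.1 ± 8.76 CPM in mESCs compared with 80.4 ± 19.4 CPM in CPCCs (SD, n = 3 each), which did not pass the test (adjusted p = 0.557). *Pdhb*, its partner subunit, was 36 ± 2.17 CPM and 22.0 ± 1.66 CPM (SD, n = 3 each) and was called lower (adjusted p = 0.0111). The kinases differed among themselves. *Pdk2* (chromosome 11, 95026258 to 95041372), a kinase abundant in heart, stood at 0.927, 2.65 and 3.07 CPM in the mESC libraries against 6.96, 12.2 and 7.91 CPM in the CPCC libraries. It rose by 2.01 on the log2 scale (SE 0.51, adjusted p = 0.00751), from a low level. *Pdk3*, the most abundant of the family per coding length in both groups, ran at 91.0, 101 and 87.2 CPM over S01 to S03 and at 46.9, 69.2 and 63.5 CPM over S04 to S06. It fell by 0.64 on the log2 scale (SE 0.19, adjusted p = 0.0176), a call lost without S02 (adjusted p = 0.0689). *Pdk1*, a known hypoxia-inducible kinase, had 68.6, 55.5 and 90.2 CPM in the mESC libraries compared with 22.4, 37 and 60.1 CPM in CPCCs. The groups met only at S02 and S06, and the change was close to the threshold (log2 fold change -0.84, SE 0.34, adjusted p = 0.0563). It passed without S06 (adjusted p = 0.00633). *Pdk4*, the kinase induced by fasting, had 3.86, 3.68 and 2.19 CPM in mESCs, whereas CPCCs had 9.94, 3.76 and 4.01 CPM. Only S04 stood apart, and the gene was not called (adjusted p = 0.178).

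PFKFB enzymes make and remove fructose-2,6-bisphosphate, the strongest activator of phosphofructokinase. Both members were higher in CPCCs while *Pfkp* and *Pfkl* were lower. *Pfkfb3* (chromosome 2, 11471431 to 11553930), the form that favours synthesis, stood at 14.2, 14.1 and 14.5 CPM in the mESC libraries against 37.5, 28.0 and 38.2 CPM in the CPCC libraries (log2 fold change 1.28, SE 0.22, adjusted p = 0.00099). *Pfkfb4* ran at 4.17, 5.15 and 4.39 CPM over S01 to S03 and at 6.96, 12.5 and 8.71 CPM over S04 to S06 (log2 fold change 1.03, SE 0.37, adjusted p = 0.035). The *Pfkfb4* call was the least stable of the 29, since it was lost in 5 of the 6 fits that left out 1 library, with an adjusted p of 0.0961 without S01, 0.0616 without S02, 0.0792 without S03, 0.157 without S05 and 0.057 without S06.

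In the oxidative branch of the pentose phosphate pathway 1 of the 3 enzymes rose, 1 fell and 1 did not pass the test. *G6pdx*, the X-linked glucose-6-phosphate dehydrogenase that gates the branch, had 79.8, 73.4 and 77.2 CPM in the mESC libraries compared with 69.3, 62.9 and 62.2 CPM in CPCCs. The CPCC libraries were all lower, but by little, and the change did not pass the test (log2 fold change -0.25, SE 0.16, adjusted p = 0.204). *Pgls* (chromosome 8, 71592184 to 71596268), the lactonase of the next step, had 33.5, 34.6 and 27.2 CPM in mESCs, whereas CPCCs had 72.0, 63.2 and 62.5 CPM. It was the only gene of the pathway's 7 called higher, with a log2 fold change of 1.05 (SE 0.18, adjusted p = 0.00103). *Pgd*, which makes the second NADPH, stood at 181, 162 and 137 CPM in the mESC libraries against 113, 108 and 99.4 CPM in the CPCC libraries. It fell by 0.58 on the log2 scale (SE 0.17, adjusted p = 0.0143), and the call was lost without S01 (adjusted p = 0.0778) and without S02 (adjusted p = 0.0546).

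In the non-oxidative branch 3 of 4 genes were lower. *Rpia* (chromosome 6, 70765720 to 70792176), the isomerase that yields ribose-5-phosphate, ran at 19.5, 19.0 and 14.3 CPM over S01 to S03 and at 1.99, 4.24 and 2.29 CPM over S04 to S06. Its log2 fold change of -2.63 (SE 0.38, adjusted p = 0.00035) followed only *Aldoc* and *Pfkp* among the falls. *Taldo1*, transaldolase, had 188, 172 and 139.5 CPM in the mESC libraries compared with 56.4, 57.6 and 65.7 CPM in CPCCs (log2 fold change -1.48, SE 0.18, adjusted p = 0.000127). *Tkt*, transketolase, had 348, 331 and 272 CPM in mESCs, whereas CPCCs had 96.3, 129.8 and 158 CPM (log2 fold change -1.31, SE 0.21, adjusted p = 0.000643). Both returning enzymes thus fell while the epimerase *Rpe* scattered. *Rpe* stood at 61.1, 45.3 and 109 CPM in the mESC libraries against 114, 32.1 and 38.7 CPM in the CPCC libraries, and S03 and S04 stood far above the other 4 libraries. It was not called (adjusted p = 0.72), and without S04 it was called lower with a log2 fold change of -1.01 (adjusted p = 0.0139). *Rpe* shares 558 bp of annotated transcript with *Kansl1l* on the other strand, which averaged 4.55 ± 1.25 CPM in mESCs compared with 13.8 ± 0.918 CPM in CPCCs (SD, n = 3 each).

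The 37 genes were ranked by level as CPM per kb of coding length, with each gene's counts as listed. On this scale *Ldha* was highest in mESCs at 2986 ± 498 and *Pkm* next at 2878 ± 298 (SD, n = 3 each), and these neighbours were within their spread. *Pgam1* came next at 1463 ± 73.7 and *Aldoa* at 1092 ± 63.0. In CPCCs *Ldha* at 1243 ± 175 and *Pkm* at 947 ± 142 kept the first ranks, followed by *Pgam1* at 654 ± 10.4 and *Tpi1* at 531 ± 147 (SD, n = 3 each). The ranks depend on the retrocopy, since *Eno1* with *Eno1b* added, per kb of the coding length of *Eno1*, stood at 2094 ± 178 in mESCs, above *Pgam1*, and at 1061 ± 210 in CPCCs, above the mean of *Pkm* and within its spread. As listed, *Ldhb* moved from rank 20 to rank 9 of the 37 and *Pgls* from rank 26 to rank 12. *Pfkp* moved from rank 8 to rank 22 and *Rpia* from rank 29 to rank 37. The counts of the 18 glycolytic and lactate dehydrogenase genes equalled 1.33% of the effective size of each mESC library and 0.429%, 0.53% and 0.557% of that of S04, S05 and S06.

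Isozymes of a step differ in kinetics and tissue, so the share of each in its family was computed in each library on counts per kb of coding length. With 3 libraries against 3, the smallest p that an exact permutation test can give is 0.1, so no share difference could pass 0.05. *Hk2* held 81.1%, 76.4% and 80.7% of hexokinase in mESCs and 63.8%, 58.3% and 67.9% in CPCCs. *Hk1* held the rest, and the groups did not overlap (difference -16.0 points, two-sided exact permutation p = 0.1, adjusted over 9 families 0.15). Among phosphofructokinases *Pfkp* held 80.0%, 78.7% and 83.1% in mESCs and 64.6%, 57.4% and 50.3% in CPCCs. *Pfkl* went from 18.1 ± 2.5% to 35.5 ± 8.6% (SD, n = 3 each), and *Pfkm* from 1.25 ± 0.23% to 7.06 ± 1.7% (SD, n = 3 each) although the change in its own CPM did not pass the test. The lead of *Pfkp* over *Pfkl* thus narrowed most in S06, where they held 50.3% and 43.4%.

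*Aldoa* held 95.2%, 96% and 93.8% of aldolase in mESCs and 99.3%, 98.2% and 97.1% in CPCCs, so here the lead isozyme gained share while both genes fell. *Ldhb* held 2.75%, 3.06% and 1.48% of lactate dehydrogenase in mESCs and 10.01%, 10.2% and 6.25% in CPCCs. *Ldha* still held 91.2 ± 2.2% of the family in CPCCs (SD, n = 3). For both families the shares did not overlap between groups (two-sided exact permutation p = 0.1, adjusted 0.15).

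The enolase shares depended on the retrocopy. As listed, *Eno1* held 93.3%, 95.04% and 89.3% of enolase in mESCs and 57.3%, 68.1% and 76.1% in CPCCs, a difference of -25.4 points. With *Eno1b* counted as *Eno1*, the share was 99.4 ± 0.17% in mESCs and 96.4 ± 1.0% in CPCCs (SD, n = 3 each), a difference of -2.94 points. Counted in this way *Eno2* went from 0.219 ± 0.18% to 1.86 ± 0.58% and *Eno3* from 0.397 ± 0.025% to 1.69 ± 0.44% (SD, n = 3 each). In both counts every CPCC library was below every mESC library for *Eno1* (two-sided exact permutation p = 0.1, the smallest possible).

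In the pyruvate dehydrogenase kinase family *Pdk3* held 56.4%, 63.0% and 48.8% in mESCs and 54.9%, 57.3% and 47.7% in CPCCs. These overlapped (two-sided exact permutation p = 0.6, adjusted 0.6). *Pdk1* held 40.6 ± 7.6% and 32.5 ± 9.5% (SD, n = 3 each), which overlapped too. *Pdk2* held 0.586%, 1.68% and 1.75% in mESCs and 8.31%, 10.3% and 6.06% in CPCCs and stayed a minor form. *Pdk4* held 2.41%, 2.31% and 1.24% in mESCs and 11.7%, 3.13% and 3.04% in CPCCs, which did not overlap (two-sided exact permutation p = 0.1), although the change in its own CPM did not pass the test. Of *Slc2a1* and *Slc2a3* together, *Slc2a3* held 84.5%, 86.0% and 79.7% in mESCs and 37.5%, 70.2% and 71.6% in CPCCs. The difference of -23.6 points (two-sided exact permutation p = 0.1, adjusted 0.15) was -12.5 points without S04. The plot of isozyme shares shows these patterns library by library.

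**Figure D4:**
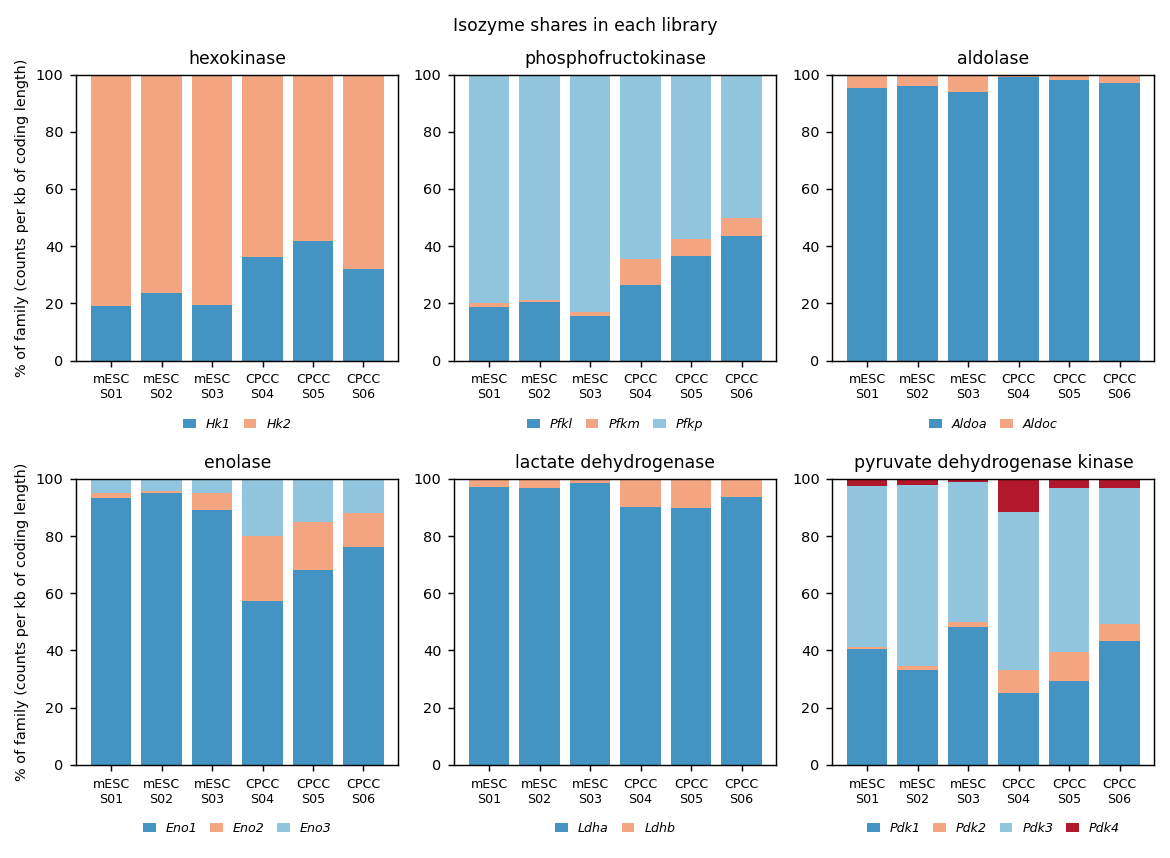
Share of each isozyme in its family in each library, in percent of counts per kb of coding length, as stacked bars that sum to 100%. *Hk1*, *Pfkl* with *Pfkm*, *Eno2* with *Eno3*, *Ldhb*, *Pdk2* and *Pdk4* take larger shares in the 3 CPCC libraries than in the 3 mESC libraries, and *Aldoc* takes a smaller share. *Eno1b* is not part of the enolase bars.

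The CPCC libraries differed among themselves in the genes that fell. S04 was the lowest CPCC library for 18 of the 22 lower genes (81.8%), where it was lowest for 61.5% of all genes called lower. S06 was the highest for 14 of the 22 (63.6%), against 52.7% of all genes called lower. Among them *Slc2a3*, *Aldoc*, *Gapdh*, *Pgk1*, *Eno1*, *Pkm*, *Ldha* and *Tkt* were lowest in S04, intermediate in S05 and highest in S06. The pluripotency markers, summed, had the same order. Their summed level was 108 CPM in S04, 151 CPM in S05 and 187 CPM in S06, against 3619 to 3853 CPM in mESCs. *Nanog* had 7.85, 25.6 and 42.5 CPM in these CPCC libraries, none of the 8 markers was at 0, and *Klf4* had the opposite order with 74.3, 44.1 and 36.7 CPM. The summed level of the cardiac and mesenchymal markers was highest in S04, with 9804, 8204 and 5647 CPM over S04 to S06. Most of it came from *Acta2*, highest in S04, and *Col1a1*, highest in S05 (3209, 3535 and 2402 CPM). *Fst* and *Tnnt2* were also highest in S04, whereas *Gata4* and *Pdgfra* were lowest in S04 and highest in S06. The part of either group of cells in the levels of the glycolytic genes was not tested. S04 also held the most counts, at 11436062.

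To show the sequence before the start sites, promoter windows were taken from RefSeq on GRCm38.p6 for 36 of the 37 genes. *Slc2a3* had none. The letters searched, on either strand, began with ACGTG, the core that hypoxia-inducible factors bind, and its variant GCGTG for the same factors. The others were CACGTG, which is the E-box that MYC binds and overlaps the first core, then AAGGTCA for oestrogen-related receptors and GGGCGG for SP1. In windows of 250 bases before and 50 after the start, ACGTG was present for 18 of 36 genes, against 29.7% of tested genes with a window and 21.8% of all genes with one. It was present for 12 of 21 lower genes (57.1%) and 2 of 7 higher genes (28.6%). GGGCGG was present for 19 of 21 lower genes (90.5%) and 3 of 7 higher genes (42.9%), against 70.7% of tested genes. GCGTG was present for 72.2% of the 36 genes and 57.2% of tested genes, CACGTG for 13.9% and 12.0%, and AAGGTCA for 5.56% and 3.85%. These counts are a description without a test, genes with several start sites had more chances of a match, and a match is not a bound site.

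The 250 bases before the start are printed for the genes with a single window that changed most, so that lower and higher genes can be set side by side. *Pfkp* is at chr13:6648772-6649021, *Rpia* at chr6:70792176-70792425 and *Hk2* at chr6:82774455-82774704, all on the minus strand, for the lower genes. *Eno2* is at chr6:124769674-124769923 on the minus strand and *Eno3* at chr11:70656926-70657175 on the plus strand, for the higher genes. The bases just after the start lay in the transcript used for coding length for all these windows except that of *Eno3*. Each reads 5′ to 3′ along the gene's strand, in lower case with either hypoxia core, on either strand, in capitals.
Pfkp: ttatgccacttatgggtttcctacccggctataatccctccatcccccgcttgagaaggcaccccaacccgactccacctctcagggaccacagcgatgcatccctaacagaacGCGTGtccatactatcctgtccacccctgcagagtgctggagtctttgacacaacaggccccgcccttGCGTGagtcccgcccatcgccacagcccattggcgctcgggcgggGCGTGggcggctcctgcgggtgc
Rpia: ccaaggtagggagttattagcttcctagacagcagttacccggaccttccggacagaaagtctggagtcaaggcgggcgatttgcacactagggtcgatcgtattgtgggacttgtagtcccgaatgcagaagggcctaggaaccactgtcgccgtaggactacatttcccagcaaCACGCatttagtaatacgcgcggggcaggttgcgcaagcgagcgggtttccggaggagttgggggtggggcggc
Hk2: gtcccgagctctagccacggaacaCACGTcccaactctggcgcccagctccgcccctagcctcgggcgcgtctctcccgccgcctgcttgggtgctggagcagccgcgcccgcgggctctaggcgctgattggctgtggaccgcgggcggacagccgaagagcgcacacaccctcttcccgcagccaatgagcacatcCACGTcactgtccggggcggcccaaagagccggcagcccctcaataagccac
Eno2: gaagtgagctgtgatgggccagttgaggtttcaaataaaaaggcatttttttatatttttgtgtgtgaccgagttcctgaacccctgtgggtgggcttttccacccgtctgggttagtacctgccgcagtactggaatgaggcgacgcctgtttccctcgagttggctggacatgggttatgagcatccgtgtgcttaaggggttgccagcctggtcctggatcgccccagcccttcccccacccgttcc
Eno3: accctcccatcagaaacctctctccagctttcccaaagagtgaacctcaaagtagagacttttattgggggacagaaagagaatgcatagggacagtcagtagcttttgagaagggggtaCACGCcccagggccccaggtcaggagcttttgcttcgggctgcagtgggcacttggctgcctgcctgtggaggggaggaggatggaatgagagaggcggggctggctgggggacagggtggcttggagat
*Pfkp* has 3 such matches, *Hk2* has 2, *Rpia* and *Eno3* have 1 each and *Eno2* has 0.

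Genes beside the 37 were described by lists of the same pathways. Of 36 other isozymes, transporters and linked enzymes, 17 were tested, with 7 higher, 6 lower and 4 not called (median log2 fold change -0.28). The higher share was 41.2% and the lower share 35.3%, near the 31.7% and 29.7% of all genes tested. *Tigar*, a fructose-2,6-bisphosphatase that opposes the PFKFB enzymes, ran at 256, 251 and 205 CPM over S01 to S03 and at 26.7, 31.0 and 38.5 CPM over S04 to S06 (log2 fold change -2.89, SE 0.20, adjusted p = 6.63e-06). *Pfkfb2*, the heart PFKFB, had 8.19, 11.3 and 15.1 CPM in the mESC libraries compared with 63.0, 30.8 and 31.5 CPM in CPCCs (log2 fold change 1.86, SE 0.36, adjusted p = 0.00174). With *Pfkfb3* and *Pfkfb4* it makes 3 PFKFB genes that rose, while *Pfkfb1* was not called (adjusted p = 0.0959). *Prps1*, which turns ribose-5-phosphate to the nucleotide precursor PRPP, had 781, 825 and 798 CPM in mESCs, whereas CPCCs had 76.1, 115 and 151 CPM (log2 fold change -2.81, SE 0.24, adjusted p = 2.07e-05). Its paralog *Prps2* stood at 45.9, 37.5 and 45.5 CPM in the mESC libraries against 154, 101 and 89.6 CPM in the CPCC libraries (log2 fold change 1.42, adjusted p = 0.000772). So the paralogs moved in opposite directions.

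The largest changes of that list were those of *Tktl2*, a transketolase-like gene that fell by 4.25 on the log2 scale (adjusted p = 0.000115), and *Slc2a9*, a urate transporter of the glucose transporter family that rose by 3.04 (adjusted p = 0.00136). *Bsg*, the chaperone of MCT1 and MCT4, rose by 0.86 (adjusted p = 0.00194) while *Slc16a1* fell. *Hk3*, *Slc2a4*, *Slc2a6*, *Slc2a10*, *Slc2a12*, *Slc16a4* and *Slc16a7* were listed only for CPCCs and *Ldhc*, the testis lactate dehydrogenase, only for mESCs.

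Beyond pyruvate, the 9 genes of mitochondrial pyruvate import and of the pyruvate dehydrogenase complex gave 1 higher, 2 lower and 6 not called (median log2 fold change -0.19). The higher share was 11.1% and the lower share 22.2%, against 31.7% and 29.7% of all genes tested. The phosphatases that switch the complex on went apart, with *Pdp2* at -2.06 (adjusted p = 0.0037) and *Pdp1* at 1.59 (adjusted p = 0.0017) on the log2 scale. Of 16 TCA cycle genes, 9 were lower, 0 were higher and 7 were not called (median log2 fold change -0.61, edgeR). The count of higher TCA cycle genes was also 0 at an unadjusted p under 0.05 and with DESeq2. *Suclg2*, a succinyl-CoA ligase subunit, fell by 1.90 and *Idh3g*, an isocitrate dehydrogenase subunit, by 1.39 on the log2 scale (adjusted p = 3.89e-05 and 0.000192). The lower TCA share of 56.2% stood beside 59.5% for the 37 genes and 29.7% for all genes tested.

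Of 10 genes that supply NADPH or draw on glucose for serine, glycerol and amino sugars, 6 were lower, 1 was higher and 3 were not called (median log2 fold change -0.59). The lower share was 60%, against 29.7% of all genes tested, and the higher share 10%, against 31.7%. *Gsr*, glutathione reductase, fell by 2.02 (adjusted p = 0.000347) and *Psat1*, of serine synthesis, fell by 1.45 (adjusted p = 0.00153), whereas *Gfpt1*, the entry enzyme of the hexosamine pathway, rose by 1.86 on the log2 scale (adjusted p = 0.000769). Gluconeogenesis and glycogen genes gave 4 higher, 1 lower and 4 not called of 9 tested (median log2 fold change 0.59). The higher share of 44.4% stood beside 31.7% of all genes tested, a difference of few genes at this list size. *Gbe1*, the glycogen branching enzyme, rose by 2.15 on the log2 scale (adjusted p = 0.0157).

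Many glycolytic genes are targets of hypoxia-inducible factors, so other hypoxia-response genes were set beside them. Of 20 tested, 5 were higher, 5 were lower and 10 were not called (median log2 fold change 0.08). The higher and lower shares of 25% each stood beside 31.7% and 29.7% of all genes tested. *Hif1a* itself ran at 60.9, 68.3 and 117 CPM over S01 to S03 and at 277, 137 and 140 CPM over S04 to S06 (log2 fold change 1.17, adjusted p = 0.0149). *Ankrd37* fell by 3.71 and *Bnip3* by 1.44 on the log2 scale (adjusted p = 0.000163 and 0.0038), while *Adm* rose by 3.38 and *P4ha2* by 2.40 (adjusted p = 0.00376 and 2.33e-05). *Vegfa* was not called (adjusted p = 0.739). The plot of the lists shows each tested gene.

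**Figure D5:**
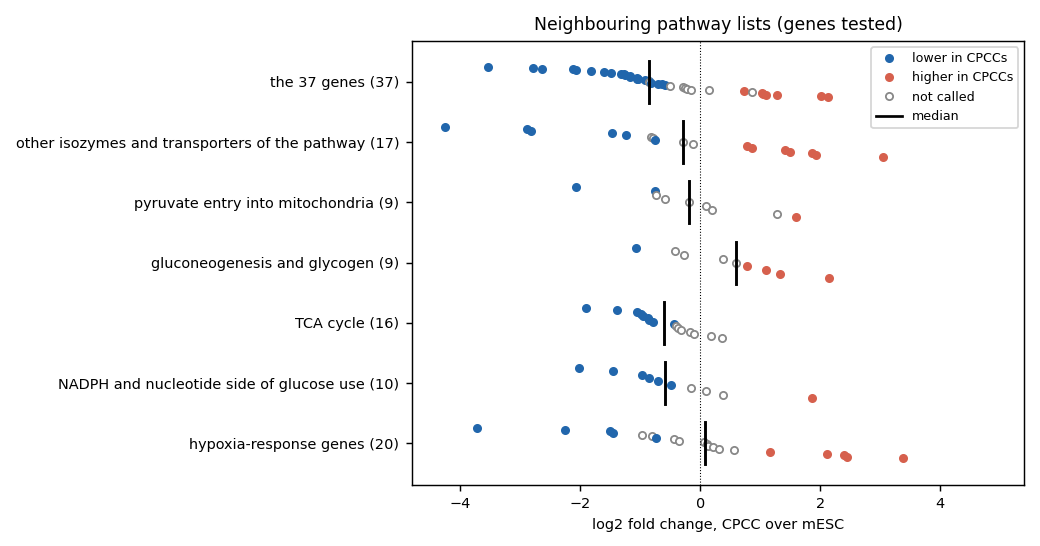
log2 fold change, CPCC over mESC, of each tested gene (horizontal axis) in the 37 genes and in 6 neighbouring lists, with the number of tested genes in brackets. Blue points are lower, red points higher and open points not called, and the black bar is the list's median, which runs from -0.84 for the 37 genes to 0.59 for gluconeogenesis and glycogen.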

How the data were processed

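Bulk RNA-seq libraries of 3 mESC and 3 CPCC samples were analysed. The authors made polyA cDNA libraries, sequenced them paired-end, and deposited the estimated counts for each gene in 1 table per cell type, without normalization. The submitters' processing notes name STAR 2.7 and mm10. The counter is not given in the sources used here. Between 11.4% and 13.6% of a library's values lay more than 0.01 from a whole number, and counts were rounded. Groups follow the cell type that each table is named for. Every gene of a table holds at least 10 counts over its 3 libraries.

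The 13001 genes in both tables were fitted with edgeR 4.0.16 in R 4.3.3 (TMM, filterByExpr, glmQLFTest), and p-values were Benjamini-Hochberg adjusted over the 12471 genes tested, with calls at an adjusted p under 0.05. A standard error is the log2 fold change over the square root of F. Library depth was 6442639 to 11436062 counts, and the floor of 3 counts covers counting error only. Alternatives were DESeq2 1.42.0, other scalings and filters, missing genes at 0 or 3 counts, and leaving out each library. Copies added to their parent gene were tried after the data were seen. Genes were named in full where they were called with the largest change in their role, and the others by their values. Members and lists were chosen with earlier results of these data known, so no set test was run. Coding lengths are from GENCODE M21, copies were found with BLAST 2.17.0, and promoters are from RefSeq. On simulated counts for mESCs against CPCCs over 13001 genes, edgeR recovered 164 of 200 changed genes with 5 false calls. Far fewer genes changed there than the 61.4% called in the data, so the simulation does not measure false calls at that scale. Single-cell, allele-specific and chromatin data were not analysed here.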

Additional observations from a re-analysis of the deposited data

How the results depend on the processing

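The count of lower genes among the 37 ran from 20 to 24 and that of higher genes from 5 to 7 over all alternatives of test, scaling, filter and left-out library, with the 2-fold threshold giving 16 and 6. The median log2 fold change of the 37 genes stayed between -0.97 and -0.75. Of the 29 called genes, 23 kept their call under all 14 alternatives per gene (13 for *Pdk2*, which the filter of 10 counts in every library removed), 6 lost it under at least 1 (*Gapdh*, *Ldhb*, *Pdk3*, *Pfkfb4*, *Pgd*, *Slc16a1*) and 0 changed sign. Among the 8 not called, 3 gained a call under at least 1 alternative, *Pdk1* also with DESeq2 (adjusted p = 0.0328) and with missing genes at 3 counts (adjusted p = 0.0488). Direction turned for *Pfkm*, whose log2 fold change ran from -0.082 without S02 to 0.39 without S03, and for *Rpe*, at -1.01 without S04, 0.22 without S03, 0.10 without S05 and 0.04 without S06. The cause was not tested. The share of *Pdk3* in its family differed by -6.37 to 0.75 points when 1 library was left out, with the sign turned without S02 and without S06 (0.064 points). The share of *Pfkfb3* differed by -0.48 to 7.53 points, and the sign turned without S04. The other 7 lead isozymes kept their direction on raw counts, per coding length, per transcript length and without each library.

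No paired analysis was possible because the columns carry no replicate numbers that tie a CPCC library to its parent clone. Depth sets the floor of 3 counts at 0.298 to 0.463 CPM, and *Pdk2* came nearest to it of the 37 genes, with 6 counts in S01.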
